A study of Mus musculus with 2 samples.

Results

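The iron handling genes described here are 9 protein-coding genes, chosen by symbol from the 32285 genes of the count tables: Trf, Tfrc, Slc11a2, Slc40a1, Heph, Cp, Fth1, Ftl1 and Hmox1. They were measured in single cells of the mouse choroid, the vascular and pigmented layer behind the retina, and of the retinal pigment epithelium (RPE), the single cell layer between the choroid and the photoreceptors. The samples were 2 libraries of wild-type mice of the outbred albino strain ICR, aged 8 weeks, and each library was a pool of the tissue of 1 male and 1 female mouse. No mutant, treatment or second age was part of the data, so the comparisons are between cell classes within the same pooled eyes, with the library as the replicate (n = 2). Collagenase A for 2 h and then trypsin were used to digest the tissue, which was passed through a 40 µm filter, and 10000 cells per library were loaded on the 10x Chromium 3′ v3.1 system, per the labels.

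Iron travels between cells bound to transferrin (Trf), which binds the transferrin receptor (Tfrc) and is taken up into endosomes, where the divalent metal transporter (Slc11a2) moves reduced iron into the cytosol. Iron that is not used is stored in ferritin, a shell of heavy chains (Fth1), which oxidize iron, and light chains (Ftl1), or leaves the cell through ferroportin (Slc40a1) with the help of a ferroxidase, membrane-bound hephaestin (Heph) or ceruloplasmin (Cp). Heme oxygenase 1 (Hmox1) releases iron from heme and is induced by heme and by oxidative stress. The RPE lies between the blood supply and the outer retina and is known as a site of iron transport, and loss of both Cp and Heph in mice leads to iron accumulation in the RPE and retina.

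Part of this control acts on the mRNA through the iron-responsive element, a short hairpin that iron regulatory proteins bind when iron is scarce. In a 5′ UTR it blocks translation, and in the 3′ UTR of Tfrc it protects the mRNA. A search of the GENCODE M21 transcripts (GRCm38, the build also called mm10) for a C, 5 bases, the 6-base loop CAGTGN and 5 bases that pair with the 5 before the loop, on the transcript strand only, found 7 sites in 4 of the 9 genes. The same search matched 31 of 20597 protein-coding genes with an annotated 5′ UTR (0.151%) and 129 of 20995 with an annotated 3′ UTR (0.614%), whatever the length of the UTR. The sites are shown because they mark where a hairpin of the searched form lies in a member, and whether a site acts was not tested. Control of translation is not seen in RNA counts such as these. Each site is given 5′ to 3′ on the transcript strand, in the DNA letters of the genome, with the 6 bases of the loop in capitals.
Fth1, exon 1 of 4, 5′ UTR, chr19:9982733-9982759, plus strand: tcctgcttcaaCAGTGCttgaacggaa
Ftl1, exon 1 of 4, 5′ UTR, chr7:45459780-45459806, minus strand: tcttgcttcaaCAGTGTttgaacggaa
Slc40a1, exon 1 of 8, 5′ UTR, chr1:45925466-45925492, minus strand: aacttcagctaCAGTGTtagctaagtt
Tfrc site 1, exon 19 of 19, 3′ UTR, chr16:32631220-32631246, plus strand: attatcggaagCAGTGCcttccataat
Tfrc site 2, exon 19 of 19, 3′ UTR, chr16:32631599-32631625, plus strand: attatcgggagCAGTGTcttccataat
Tfrc site 3, exon 19 of 19, 3′ UTR, chr16:32631664-32631690, plus strand: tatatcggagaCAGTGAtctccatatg
Tfrc site 4, exon 19 of 19, 3′ UTR, chr16:32631711-32631737, plus strand: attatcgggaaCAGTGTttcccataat
No such letters were found in the annotated UTRs of the other 5 members, which says nothing about elements of another form.

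Barcodes with 1000 or more unique molecular identifiers (UMIs, 1 per captured RNA molecule), 500 or more genes and a mitochondrial share no higher than 20% were taken as cells, 8497 in library 1 and 13401 in library 2, with a median of 7842 and 8253 UMIs. A cell was assigned to 1 of 6 classes by the class with the most UMIs, and at least 5, of 3 marker genes. The classes in libraries 1 and 2 held 4095 and 6278 fibroblasts, 1407 and 2249 melanocytes, 304 and 902 RPE cells, 465 and 609 endothelial cells, 1118 and 1713 mural cells (pericytes and smooth muscle) and 430 and 866 macrophages, and 678 and 784 cells had no class. Markers that the rule did not use supported each label: the summed level of each class's own 4 such markers was higher in that class than in any other in both libraries. The RPE markers Ttr, Lrat and Slc16a8 were among them, whereas Best1 was close to 0 in the RPE class too. RPE cells were the deepest (median 26253.5 and 19066 UMIs) and mural cells the shallowest (6082 and 6181). The libraries shared 31 cell barcodes, and Scrublet, which marks barcodes that may hold more than 1 cell, marked 217 and 700 cells, which were kept here and removed in an alternative.

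Levels are given as counts per 1000000 (CPM) of the UMIs summed over all cells of a class in a library, on library sizes adjusted by edgeR's TMM factors, and each mean is followed by its SD over the 2 libraries. Differences are log2 fold changes with their standard error (SE), from edgeR's quasi-likelihood test on the 12 sums with the library as a block and Benjamini-Hochberg adjustment over 15402 genes. A call of higher or lower needs a log2 fold change of 1 or more in that direction together with an adjusted p under 0.05. All 9 members were tested, and none is a gene that defines a class.

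The macrophage class differed from the mean of the other 5 classes in the largest number of members. There 6 of 9 were called higher (Trf, Slc11a2, Slc40a1, Fth1, Ftl1 and Hmox1), against 19.5% of all genes tested, and Heph was called lower, against 21.3%. The median log2 fold change of the 9 was 1.26 in macrophages, where that of all genes was −0.17. Mural cells showed the opposite: 5 of 9 were called lower (Trf, Slc11a2, Fth1, Ftl1 and Hmox1), against 10.4% of all genes, and Cp was called higher, against 14.6%, with a median of −1.09 for the members and −0.08 for all genes. On raw UMI totals, without TMM factors, 3 members in place of 5 were called lower in mural cells (Fth1 and Ftl1 were lost), and in macrophages 4 in place of 6 were called higher (Trf and Hmox1 were lost) and 2 lower (Heph and Tfrc).

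In the RPE 2 of 9 members were called higher (Trf and Heph) and 2 lower (Cp and Slc40a1), shares near the 26.0% and 24.6% of all genes called there. Endothelial cells had 1 member called higher (Slc40a1), against 15.3% of all genes, and 3 called lower (Trf, Slc11a2 and Fth1), against 20.7%. Fibroblasts had 2 higher (Cp and Hmox1), against 18.2%, and 1 lower (Trf), against 8.69%. In melanocytes no member was called higher, against 14.6% of all genes, with 0 also by DESeq2. Fth1 (0.84, edgeR, adjusted p = 1.77e-05), Ftl1 (0.57, edgeR, adjusted p = 0.000259) and Slc11a2 (0.96, edgeR, adjusted p = 0.000306) were positive there but under the size for a call. That count of 0 was not kept in 5 of the other alternatives: it was 2 on raw UMI totals (Slc11a2 and Fth1) and 1 (Slc11a2) without the filter on low counts, with free RNA subtracted, with doublets removed and with a stricter class rule. In the same class 2 members were called lower (Slc40a1 and Hmox1), against 11.3%.

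**Figure D1:**
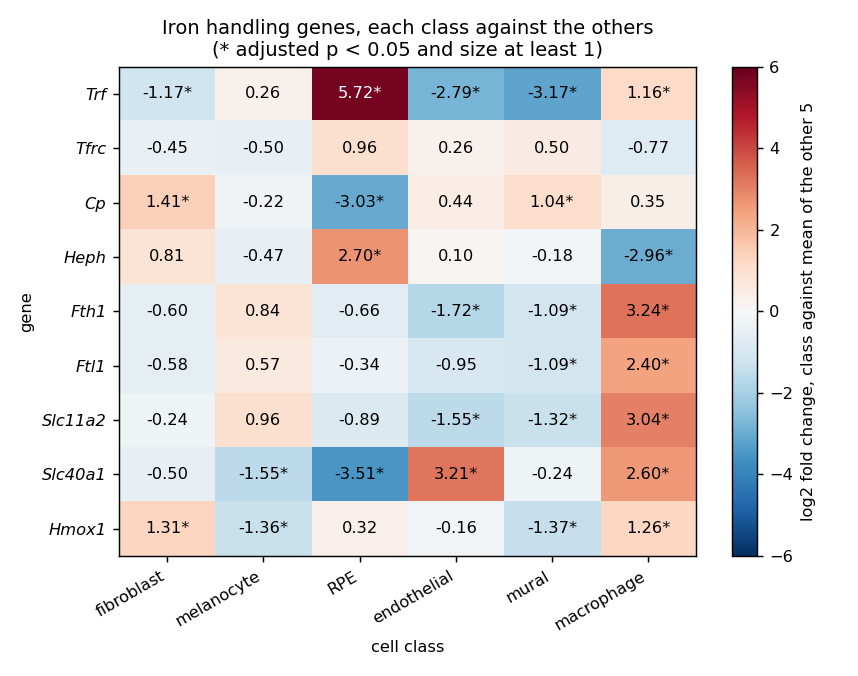
Log2 fold change of each iron handling gene (rows) in each cell class (columns) against the mean of the other 5 classes, from edgeR's quasi-likelihood test, with colour by size and direction and an asterisk where the call was made. Trf in the RPE (5.72) and Slc40a1 in the RPE (−3.51) are the extremes, and the macrophage column holds 6 genes called higher.

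Transferrin RNA was by far most abundant in the RPE. Trf (chr9:103204001-103230444, minus strand) stood at 5761 and 6475 CPM in RPE cells of libraries 1 and 2, a mean of 6118 ± 505 (SD, n = 2). The macrophage values were 396 and 492 CPM, the melanocyte values 173 and 388, and the fibroblast values 111 and 116. Endothelial cells had 32.0 and 62.7 CPM and mural cells 22.7 and 54.7, and only these last 2 classes overlapped. RPE against macrophages, the class next to it, gave a log2 fold change of 3.80 ± 0.34 (SE; edgeR, adjusted p = 1.35e-05), and 29.2% of all genes were called higher in that contrast. Macrophages and melanocytes did not differ beyond the threshold (0.75 ± 0.31, edgeR, adjusted p = 0.0648), although their libraries did not overlap. Melanocytes exceeded fibroblasts by 1.19 ± 0.31 (edgeR, adjusted p = 0.0105), where 15.8% of all genes were called higher in melanocytes. Fibroblasts exceeded endothelial cells by 1.35 ± 0.32 (edgeR, adjusted p = 0.00693), where 22.4% were called higher in fibroblasts.

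When every cell was thinned to 2000 UMIs, so that depth was equal, a Trf UMI was found in 94.9% of 295 RPE cells in library 1 (exact 95% interval 91.8% to 97.1%) and in 96.9% of 859 in library 2 (95.5% to 97.9%). Such intervals cover counting error only, and 9 and 43 RPE cells with fewer UMIs were left out. Macrophages followed with 39.8% and 52.0%, and melanocytes with 24.5% and 30.3%. The lowest shares were those of mural cells, 3.79% and 4.89%, which stand in for a background here, since no class is known to lack the gene. Without thinning the shares were 100% and 99.7% in RPE cells and 7.96% and 15.7% in mural cells, at their unequal depths.

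Trf RNA was also abundant outside cells, and RPE RNA could be followed in other classes through RPE markers. In barcodes with at most 100 UMIs, which hold free RNA, Trf stood at 548 and 990 CPM of raw UMI totals, and these barcodes had 4.90% and 4.11% of all UMIs. Free RNA held 8.97 and 8.87 Trf UMIs per 100 UMIs of the RPE markers Ttr, Best1, Lrat and Slc16a8, close to the 7.85 and 9.25 of RPE cells. Macrophages held 364 and 138 per 100. At the ratio of RPE cells, their RPE marker UMIs would bring 6.19 and 27.7 CPM of Trf, where 287 and 414 CPM of raw UMI totals were measured. In mural cells the same calculation gave 11.2 of 23.0 CPM and 37.2 of 65.2 CPM, so that their Trf was low and a large share of it went with RPE markers.

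Trf and the RPE markers were both higher in library 2 than in library 1 in all 6 classes, and the gap in the markers was widest in melanocytes. The RPE marker level of melanocytes was 273 CPM in library 1 and 2226 in library 2 (raw UMI totals), while Trf was 177 and 477 CPM. At the ratio of RPE cells, RPE RNA would account for 21.5 CPM of Trf in library 1 and 206 in library 2, leaving 156 and 271. With RPE RNA subtracted from each class on this basis, an alternative chosen after the data were seen, each of the 5 calls for Trf against the other classes was made again with the same sign, and the macrophage value rose from 1.16 to 1.54. With free RNA subtracted at a share estimated from rod photoreceptor genes, the calls for Trf in fibroblasts (−0.44, edgeR, adjusted p = 0.702), endothelial cells (−2.67, edgeR, adjusted p = 0.0652) and macrophages (1.92, edgeR, adjusted p = 0.0580) were lost, and that in the RPE was kept (6.84, edgeR, adjusted p = 0.000215). The call for higher Trf in macrophages (1.16) was also lost on raw UMI totals (0.72, edgeR, adjusted p = 0.0319) and without the filter on low counts (0.98, edgeR, adjusted p = 0.0305). The free RNA estimate took away more Trf than was counted in mural cells of library 2 (217% of the level), so it over-corrects there. If all RPE marker RNA in macrophages were free RNA, its share would be at most 1.29% and 2.69%. The estimate used 13.4% and 7.30% there. For endothelial cells the limit was 0.895% and 1.92% and the estimate 2.11% and 3.92%. For fibroblasts of library 2 they were 2.75% and 3.35%. The estimate thus over-corrects there too, in classes where calls for Trf were lost.

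**Figure D2:**
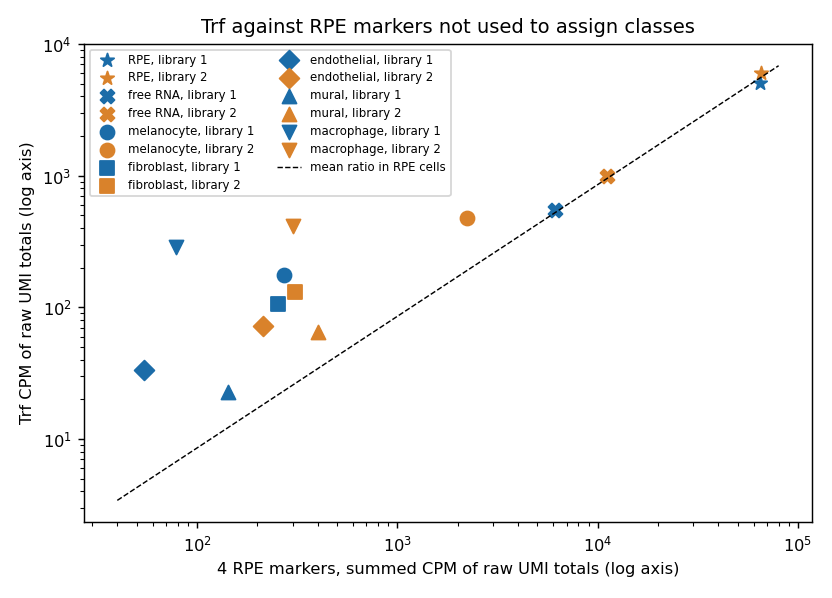
Trf level (CPM of raw UMI totals, log axis) against the summed level of 4 RPE markers not used to assign classes (CPM of raw UMI totals, log axis), for each class and for free RNA, with colour by library and symbol by class, and a dashed line at the mean ratio in RPE cells. Free RNA lies on the line of the RPE cells, macrophages lie far above it at 287 and 414 CPM, and mural cells lie nearest to it among the other classes.

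The transferrin receptor stayed within 9.59 to 32.1 CPM in all classes and libraries. Tfrc (chr16:32608920-32632794, plus strand), which carries the 4 hairpins shown above, stood at 19.6 and 32.1 CPM in RPE cells, 15.4 and 24.2 in mural cells and 14.5 and 19.8 in endothelial cells. Fibroblasts had 9.69 and 13.1 CPM, melanocytes 9.60 and 12.6, and macrophages 10.1 and 9.59. The ranges of the upper 3 classes overlapped, as did those of the lower 3. RPE exceeded mural cells by a log2 of 0.38 ± 0.17 (edgeR, adjusted p = 0.0547), so the order of those classes was not resolved. Endothelial cells exceeded fibroblasts by 0.59 ± 0.17 with an adjusted p of 0.00988 (edgeR), below the size needed for a call. Against the mean of the other classes no call was made in any class, and the value nearest to one was that of the RPE (0.96 ± 0.12, edgeR, adjusted p = 1.17e-05). The RPE value reached a call with free RNA subtracted (1.02), and the macrophage value (−0.77) did so on raw UMI totals (−1.19) and with free RNA subtracted (−1.02). That subtraction over-corrects in macrophages, as given for Trf. The shares of cells with a Tfrc UMI at 2000 UMIs per cell ran from 0.995% and 1.56% in macrophages to 3.05% and 5.01% in RPE cells. Unthinned, 37.2% and 41.6% of RPE cells had one, against 8.59% and 15.8% of mural cells, which hold far fewer UMIs per cell.

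The divalent metal transporter was highest in macrophages. Slc11a2 (chr15:100387898-100425072, minus strand) stood at 176 and 183 CPM there, 69.1 and 40.0 in melanocytes and 26.9 and 27.2 in fibroblasts. RPE cells had 16 and 20.6 CPM, mural cells 13.7 and 15, and endothelial cells 12.5 and 12.8. Each class lay apart from the next in this order, with no overlap of libraries, but not every step passed the test. Macrophages exceeded melanocytes by 1.74 ± 0.22 (edgeR, adjusted p = 2.62e-05), and 19.3% of all genes were called higher in macrophages in that contrast. Melanocytes exceeded fibroblasts by 1.00 ± 0.21 (edgeR, adjusted p = 0.00160), just under the size for a call. The steps from RPE to mural (0.36 ± 0.24, edgeR, adjusted p = 0.188) and from mural to endothelial cells (0.19 ± 0.25, edgeR, adjusted p = 0.566) were not distinguished. An Slc11a2 UMI was found in 22.4% and 24.2% of macrophages at 2000 UMIs per cell, in 13.1% and 9.44% of melanocytes, and in 2.17% and 2.83% of mural cells. The 3′ counts do not tell apart its transcripts, which include forms with and without an iron-responsive element, and no element of the searched form was found in its annotated UTRs.

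Ferroportin, the exporter, had a pattern of its own. Slc40a1 (chr1:45908068-45926523, minus strand) stood at 19.3 and 15.1 CPM in endothelial cells and 16.6 and 8.97 in macrophages, and at no more than 2.55 CPM elsewhere. Mural cells had 1.94 and 2.55 CPM, fibroblasts 1.70 and 2.23, melanocytes 1.09 and 1.07, and RPE cells 0.232 and 0.391. The endothelial and macrophage ranges overlapped (difference 0.50 ± 0.30, edgeR, adjusted p = 0.174). Macrophages exceeded mural cells by 2.37 ± 0.35 (edgeR, adjusted p = 6.07e-05), a contrast in which 21.1% of all genes were called higher in macrophages. Melanocytes exceeded RPE cells by 1.63 ± 0.53 (edgeR, adjusted p = 0.0169), and 19.7% of all genes were called higher in melanocytes there.

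The RPE value rests on 2 UMIs in library 1 and 8 in library 2, whose exact Poisson 95% intervals run from 0.0281 to 0.839 CPM and from 0.169 to 0.771 CPM. At 2000 UMIs per cell no RPE cell of either library held an Slc40a1 UMI, 0 of 295 and 0 of 859, which allows shares of up to 1.02% and 0.349%. The endothelial shares at that depth were 2.20% and 3.01%, and those of macrophages 2.74% and 1.44%. Ferroportin RNA of RPE cells was therefore at the limit of detection at this depth, below the 2.00 and 3.25 CPM of raw UMI totals measured in free RNA.

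RPE cells had the highest level of 1 ferroxidase and the lowest level of the other. Heph (chrX:96455359-96574485, plus strand) was highest in RPE cells, at 32.6 and 35.5 CPM, a mean of 34.0 ± 2.00 (SD, n = 2). Fibroblasts followed at 9.39 and 13.7 CPM, endothelial cells at 7.67 in both libraries, mural cells at 4.27 and 8.54 and melanocytes at 4.20 and 6.77. Macrophages had 0.362 and 1.86 CPM, from 1 and 12 UMIs. RPE exceeded fibroblasts by 1.58 ± 0.21 (edgeR, adjusted p = 1.45e-05), and 25.7% of all genes were called higher in RPE in that contrast. Fibroblast, endothelial, mural and melanocyte levels were not distinguished from their neighbours in the order, and melanocytes exceeded macrophages by 2.07 ± 0.42 (edgeR, adjusted p = 0.000831), with 23.8% of all genes called higher in melanocytes. The 1 macrophage UMI of library 1 has an exact Poisson 95% interval of 0.00916 to 2.02 CPM, and free RNA held 8.01 and 13.8 CPM of raw UMI totals.

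Cp (chr3:19957054-20009145, plus strand) was lowest in RPE cells, at 4.65 and 9.44 CPM. It stood at 70.9 and 118 CPM in fibroblasts, 66.8 and 82.8 in mural cells, 47.3 and 58.3 in endothelial cells, 53.2 and 47.5 in macrophages and 29.8 and 43.0 in melanocytes. All 5 of these classes lay above the RPE in both libraries. Melanocytes, the next lowest class, exceeded RPE cells by 2.34 ± 0.22 (edgeR, adjusted p = 2.25e-06), and no other step in the order passed the test. Against the mean of the other classes, Cp in RPE gave −3.03 ± 0.20 (edgeR, adjusted p = 3.51e-08) and Heph in RPE 2.70 ± 0.16 (edgeR, adjusted p = 7.45e-09). At 2000 UMIs per cell, 5.42% and 6.75% of RPE cells held a Heph UMI and 0% (0 of 295, which allows up to 1.02%) and 1.75% a Cp UMI. Fibroblasts showed the reverse, with 2.22% and 3.27% for Heph and 14.4% and 24.4% for Cp. Cp overlaps Hps3 and Heph overlaps Hsf3, each on the other strand, and since the sources used here do not give the strand setting of the counting, reads of such partners cannot be told apart. The same holds for Slc11a2 and Gm5475.

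**Figure D3:**
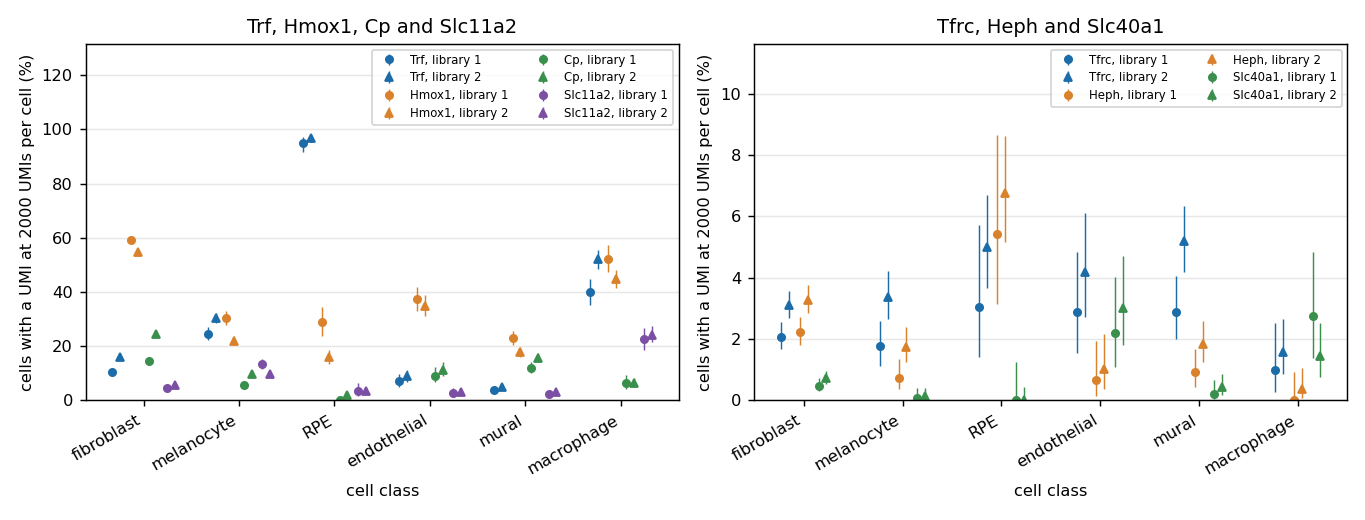
Percent of cells of each class with at least 1 UMI after every cell was thinned to 2000 UMIs, for Trf, Hmox1, Cp and Slc11a2 (left) and Tfrc, Heph and Slc40a1 (right), with symbols by library and bars for the exact 95% binomial interval. Trf in RPE cells stands at 94.9% and 96.9%, above every other value shown, and Slc40a1 in RPE cells lies at 0.

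Ferritin RNA was highest in macrophages and next in melanocytes. Fth1 (chr19:9980598-9985098, plus strand) stood at 50899 and 29531 CPM there, a mean of 40215 ± 15110 (SD, n = 2). Melanocytes had 12639 and 7482 CPM, and every other class had less than 5000. Fibroblasts had 4947 and 3629 CPM, RPE cells 4421 and 3764, mural cells 3697 and 2777 and endothelial cells 2551 and 1934. Macrophages exceeded melanocytes by 2.00 ± 0.15 (edgeR, adjusted p = 1.11e-07), and melanocytes exceeded fibroblasts by 1.20 ± 0.14 (edgeR, adjusted p = 1.15e-05). Fibroblast and RPE levels were not distinguished (0.05 ± 0.14, edgeR, adjusted p = 0.770).

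The light chain followed the same order at the top. Ftl1 (chr7:45457944-45459884, minus strand) stood at 20138 and 11363 CPM in macrophages and 8007 and 3405 in melanocytes. RPE cells had 4098 and 2357 CPM, fibroblasts 3702 and 1979, endothelial cells 2914 and 1644 and mural cells 2696 and 1514. The macrophage libraries lay above all others, while the melanocyte range overlapped those of RPE cells and fibroblasts because library 1 was higher than library 2 in every class. Macrophages exceeded melanocytes by 1.53 ± 0.13 (edgeR, adjusted p = 4.76e-07), and with the library as a block melanocytes exceeded RPE cells by 0.76 ± 0.13 (edgeR, adjusted p = 0.000232), under the size for a call. The calls for lower Fth1 and Ftl1 in mural cells (−1.09 each) were lost on raw UMI totals (−0.92 each), where the median of all genes moved by 0.16 in mural and by −0.43 in macrophage cells. The processed copy Ftl1-ps1, 99.6% identical to Ftl1 over 910 aligned bases, held 4958 UMIs against 807658 for Ftl1, and the sources used here do not say how reads common to both were counted.

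The balance of the chains differed between classes. The ratio of Fth1 to Ftl1 UMIs, which is compared here between classes and not read as a ratio of molecules, was 2.53 and 2.60 in macrophages. It was 1.58 and 2.20 in melanocytes, 1.37 and 1.83 in mural cells, 1.34 and 1.83 in fibroblasts, 1.08 and 1.60 in RPE cells and 0.876 and 1.18 in endothelial cells. Macrophages were highest and endothelial cells lowest in each library, and the macrophage values lay above all others. The ratio was lower in library 1 in all 6 classes, with the smallest gap in macrophages. The ratio is given as a description, with no test.

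**Figure D4:**
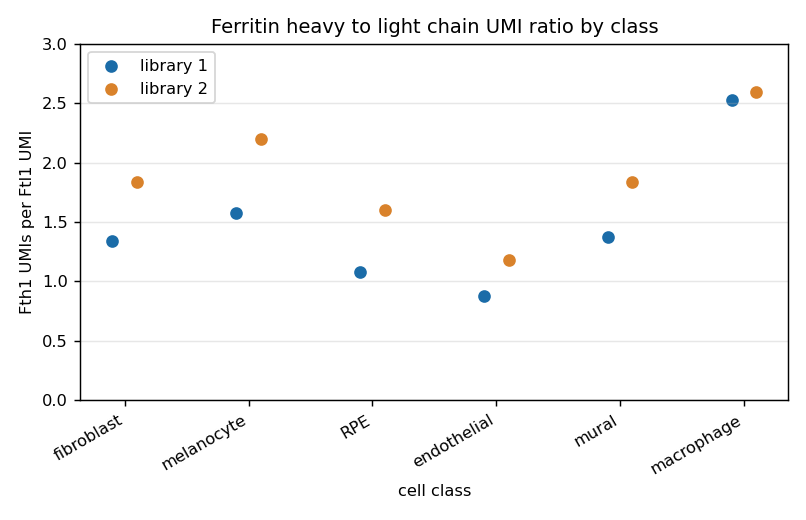
Fth1 UMIs per Ftl1 UMI in each cell class, 1 point per library. Macrophages lie at 2.53 and 2.60 and endothelial cells at 0.876 and 1.18, and library 2 lies above library 1 in every class.

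Heme oxygenase 1 was highest in fibroblasts and macrophages. Hmox1 (chr8:75093621-75100589, plus strand) stood at 1192 and 722 CPM in fibroblasts and 1163 and 699 in macrophages, which were not distinguished (0.04 ± 0.21, edgeR, adjusted p = 0.875). RPE cells had 874 CPM in library 1 and 294 in library 2, a wider gap than in any other class. Endothelial cells had 465 and 333 CPM, melanocytes 256 and 154 and mural cells 247 and 157. Macrophages exceeded RPE cells by 0.78 ± 0.21 (edgeR, adjusted p = 0.00629) and endothelial cells exceeded melanocytes by 1.00 ± 0.21 (edgeR, adjusted p = 0.00173), both under the size for a call. Melanocytes and mural cells were not distinguished (0.01 ± 0.21, edgeR, adjusted p = 0.974). The call for higher Hmox1 in macrophages (1.26) was lost on raw UMI totals (0.83, edgeR, adjusted p = 0.00261).

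At 2000 UMIs per cell, 59.0% and 54.5% of fibroblasts and 52.2% and 44.6% of macrophages held an Hmox1 UMI, against 22.9% and 17.6% of mural cells. In RPE cells the shares were 28.8% and 15.7%, so the gap between the libraries was seen in the share of cells as well as in the level. A list of 11 immediate-early and heat shock genes, which tissue digestion is known to induce, was measured beside it. Its summed level was highest in macrophages (12243 and 10371 CPM) and next in mural cells (10014 and 7261). Hmox1 was not distinguished between mural cells and melanocytes, and melanocytes had the lowest summed level in each library. In RPE cells the summed level was 3696 CPM in library 1 and 4582 in library 2, lower in the library with more Hmox1, as in melanocytes. In fibroblasts, endothelial cells, mural cells and macrophages the summed level and Hmox1 were both higher in library 1. Fibroblasts had 8382 and 5936 CPM, endothelial cells 8404 and 6022 and melanocytes 3536 and 4076. All 11 genes had UMIs in each class and library, and the part of digestion in the level of Hmox1 was not tested.

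Some differences between the libraries ran through every class. Fth1, Ftl1 and Hmox1 were higher in library 1 in all 6 classes, and Trf was higher in library 2 in all 6. Of all genes tested, 12.6% were higher in library 1 in every class and 16.7% in library 2. Tfrc, Cp, Heph and Slc11a2 were higher in library 2 in 5 of 6 classes, and Slc40a1 was split evenly. The block in the model takes up a shift that all classes of a library share, and each library is 1 pool of mice, so the cause of such a shift cannot be told apart from the library.

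**Figure D5:**
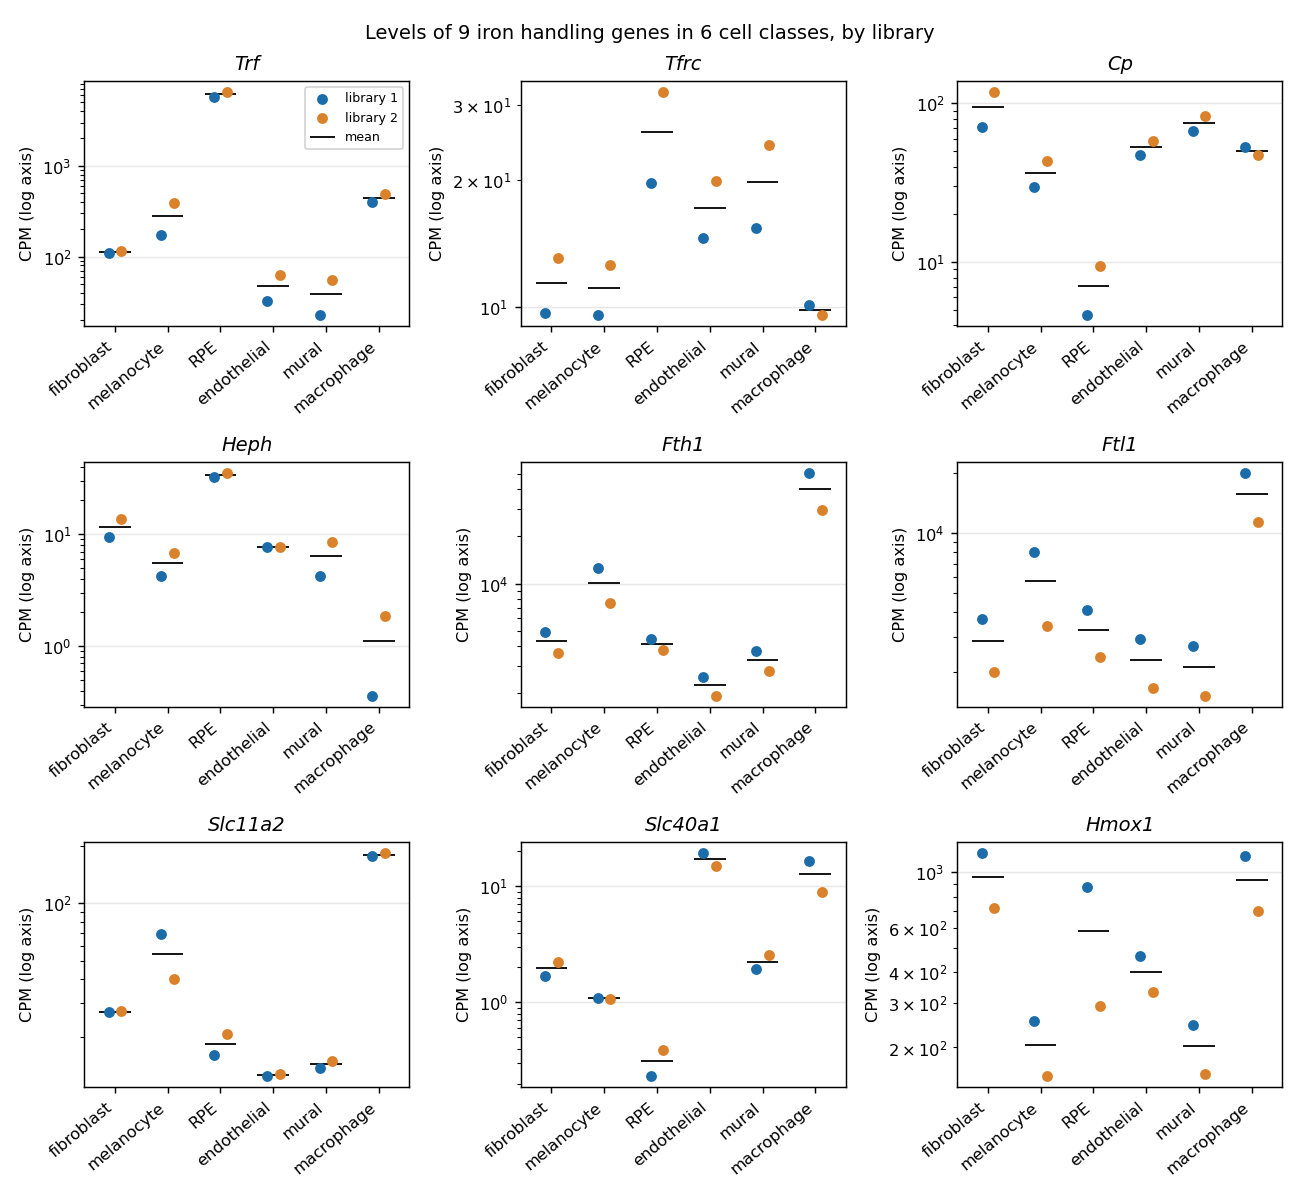
Level of each iron handling gene (CPM on TMM-adjusted library sizes, log axis, 1 panel per gene) in the 6 cell classes, with 1 point per library and a line at the mean. Trf is highest in RPE cells, Fth1, Ftl1 and Slc11a2 in macrophages, and Cp is lowest in RPE cells.

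Beyond the members, 70 further genes of iron and heme handling were listed (as 71 symbols, since Hfe2 and Hjv name the same gene), of which 62 were tested and 8 were too sparse. RPE cells had the most calls, 23 of 62 higher and 17 lower, against 26.0% and 24.6% of all genes, with a median log2 fold change of 0.23 for the list and −0.07 for all genes. Fibroblasts had 13 higher and 4 lower, melanocytes 8 and 6, endothelial cells 8 and 18, mural cells 6 and 11 and macrophages 13 and 14. Most of these counts lie near the shares of all genes given above, and the groups within the list differed more than the list as a whole.

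Heme synthesis and mitochondrial iron genes, other than the mitochondrial iron importers, were mostly higher in RPE cells. Of 9 heme synthesis genes, 5 were called higher and 1 lower, with a median of 1.44, and of 7 genes of mitochondrial iron import and iron-sulfur clusters 5 were called higher and 1 lower, with a median of 1.31. Of all genes, 26.0% were called higher and 24.6% lower in RPE cells, and their median was −0.07. Among the mitochondrial iron importers, Slc25a37 was the gene called lower (−1.70, edgeR, adjusted p = 2.06e-08), and Slc25a28 was not called (−0.06). Of the heme synthesis genes, Alas2 was the gene called lower, and Alas1, the first enzyme, was not called (0.30). Alas2 was low in every class, at 0.254 ± 0.195 CPM (SD, n = 2) in RPE cells and at most 4.80 CPM as a class mean. It is also 1 of the 5 red blood cell markers summed below. Alad, an early enzyme of heme synthesis, stood at 426 and 487 CPM, a log2 of 4.63 ± 0.10 above the mean of the other classes (edgeR, adjusted p = 1.86e-12). Flvcr2, a membrane transporter first described for heme, stood at 179 and 162 CPM (5.76 ± 0.33, edgeR, adjusted p = 2.85e-06), and Lrp2, or megalin, an endocytic receptor that takes up many carrier proteins, at 59.5 and 77.9 CPM (7.52 ± 0.33, edgeR, adjusted p = 5.99e-08). Abcg2, an efflux transporter whose substrates include porphyrins, was at 0.697 and 2.79 CPM there (−3.91 ± 0.26, edgeR, adjusted p = 5.95e-08), and Hp, haptoglobin, which binds free hemoglobin, at 0 and 0.147 CPM. Aco1, which encodes an iron regulatory protein that binds the hairpins shown above, was called higher in RPE cells at 74.2 ± 11.5 CPM (SD, n = 2; 2.81, edgeR, adjusted p = 9.38e-11) and lower in endothelial cells at 6.67 ± 2.65 CPM (−1.36, edgeR, adjusted p = 8.75e-06), and it is named here after its values were seen.

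Genes of iron uptake and reduction were mostly higher in fibroblasts, 8 of 12 with none lower and a median of 1.82, against 18.2% of all genes called higher and 8.69% lower. Of the same 12, 6 were called lower in RPE cells, against 24.6% of all genes. The RPE also had 3 called higher (Lrp2, Slc22a17 and Steap2), against 26.0%. Endothelial cells had 6 lower, against 20.7%, and 2 higher, against 15.3%. Macrophages had 5 lower, against 21.3%, and 1 higher, against 19.5%. Cybrd1, a ferric reductase, stood at 17.1 and 16.3 CPM in fibroblasts (5.32 ± 0.32, edgeR, adjusted p = 1.00e-07) and at most at 1.24 CPM as the mean of any other class. Steap3, the endosomal ferric reductase of the transferrin cycle, stood at 45.4 and 56.0 CPM (3.68 ± 0.13, edgeR, adjusted p = 2.16e-10), and Tfr2, the transferrin receptor that senses iron in liver, at 4.16 and 3.0 CPM (3.44 ± 0.32, edgeR, adjusted p = 1.06e-06). The scavenger receptor Cd163 (0.547 and 1.04 CPM) and Flvcr2 (1.86 and 1.80 CPM) were the lowest of the list in fibroblasts relative to the other classes.

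Melanocytes and mural cells each had few genes of the list called higher than the mean of the other classes, and such a call does not make the class the highest. In melanocytes the largest difference after Tfr2 (2.76 and 2.52 CPM, 2.95 ± 0.35, edgeR, adjusted p = 1.19e-05) was that of Slc22a17, a receptor for lipocalin-2, at 128 and 92.3 CPM (2.82 ± 0.12, edgeR, adjusted p = 8.18e-10). The highest mean of Tfr2 was in fibroblasts (3.58 ± 0.82 CPM, SD, n = 2), and that of Slc22a17 in RPE cells (171 ± 1.44 CPM, SD, n = 2). Steap1, a STEAP family protein, was called higher in melanocytes at 5.06 and 5.70 CPM and in mural cells at 8.15 and 5.99 CPM, and it was highest in fibroblasts, at 14.96 ± 3.16 CPM (SD, n = 2; 3.16 ± 0.17 on the log2 scale, edgeR, adjusted p = 8.24e-09). Melanocytes had lower Bmp6, a signal for hepcidin, at 0.863 and 2.49 CPM, and lower Slc7a11, the cystine importer of glutathione synthesis, at 4.26 and 11.2 CPM. In mural cells Steap4, a metalloreductase, stood at 318 and 289 CPM (4.67 ± 0.19, edgeR, adjusted p = 4.70e-08), and Bach1, a repressor of Hmox1, at 279 and 398 CPM (1.32 ± 0.13, edgeR, adjusted p = 3.84e-06). The mean of Bach1 was 338 ± 84.6 CPM in mural cells and 392 ± 129 CPM in macrophages (SD, n = 2). Mural cells had lower Flvcr2 (1.81 and 1.93 CPM) and lower Hfe (9.19 and 9.84 CPM, −1.45 ± 0.15, edgeR, adjusted p = 4.71e-06).

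Hamp, which encodes hepcidin, the hormone that removes ferroportin from the cell surface, was called higher in the same 2 classes in which Slc40a1 was called higher. It stood at 14.4 and 7.12 CPM in endothelial cells (edgeR, adjusted p = 1.75e-08) and at 15.6 and 9.12 CPM in macrophages (edgeR, adjusted p = 1.76e-08). No UMI of it was counted in RPE or mural cells, so a fitted fold change would depend on the prior count and is not given. Mice carry a near-identical copy, Hamp2, so the split of reads between them is uncertain. In endothelial cells Abcg2 stood at 187 and 226 CPM (4.17 ± 0.14, edgeR, adjusted p = 2.30e-10). Lcn2, the siderophore-binding lipocalin-2, stood at 29.4 CPM in library 1 and 11.8 in library 2 (4.32 ± 0.87, edgeR, adjusted p = 0.00571), and a list of 4 neutrophil markers summed to 65.8 and 1.40 CPM of raw UMI totals in the same cells, whose part in the Lcn2 level was not tested. Slc46a1, a folate transporter also named as a heme carrier, and Steap2 were lower in endothelial cells, at 0 and 0.110 CPM and at 0.320 and 0.438 CPM.

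In macrophages the scavenger receptor for hemoglobin and haptoglobin, Cd163, stood at 107 and 119 CPM (6.84 ± 0.23, edgeR, adjusted p = 1.49e-09), and Hp at 19.9 and 21.3 CPM (5.02 ± 0.39, edgeR, adjusted p = 6.97e-07). Of the listed genes called lower there, Bmp6 (0.362 and 0.464 CPM, −4.84) and Neo1 (3.98 and 3.56 CPM, −3.20) had the largest negative log2 fold changes. Neo1, or neogenin, is a co-receptor of the signal for hepcidin. Cybrd1 (−3.35, edgeR, adjusted p = 0.0527) lay between them without a call. Markers of red blood cells (summed over 5 genes, raw UMI totals) stood at 18.1 CPM in library 1 and 1396 in library 2 in macrophages. They varied in other classes too, with 1267 and 35.0 CPM in mural cells and 6.15 and 260 in RPE cells. Endothelial cells had the most (3423 and 2798), melanocytes had 963 and 1663 and fibroblasts 1152 and 1062. Hmox1 was higher in library 1 in all 6 classes, and the part of red blood cell RNA in its level was not tested.

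The genes whose levels followed each member most closely were taken from 6229 tested genes with a mean of at least 20 CPM, by Pearson's r of log2(CPM + 1) over the 12 sums. These points share 2 libraries and 6 classes, so r is a description. Trf was followed by Cat (r = 0.98) and Iqgap2 (0.97), Heph by Elovl6 (0.96) and Wipi1 (0.95), Cp by Ncoa7 (0.98) and Slc44a1 (0.97), and Tfrc by Col4a3 (0.93) and Ctbp2 (0.91). The same 2 genes, Ctsz and Pycard, were nearest to both Fth1 (0.98 each) and Slc11a2 (0.99 and 0.98), while Ftl1 was followed by its processed copy Ftl1-ps1 (0.98) and by Ptrhd1 (0.97). Slc40a1 was followed by Lmo2 (0.99) and Irf8 (0.98). For Hmox1 no gene reached 0.9, and the nearest were S100a10 (0.88) and Ube2e1 (0.86).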

How the data were processed

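Single cells of choroid and RPE from 2 pooled samples of wild-type mice were measured with 10x 3′ chemistry. The deposited matrices hold raw UMI counts for every barcode (1959894 and 1856693), which the authors made with Cell Ranger on mm10, per the submitters' processing notes. Those notes give version 2.1.1 and the file headers give version 4. The annotation, the strand setting and the treatment of reads that match 2 genes are not given in the sources used here. Such reads and free RNA can move the level of low members, and 91741168 and 149570817 UMIs in all set the depth.

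Barcodes were selected and assigned to classes as the report describes, and UMIs were summed per class and library. The 12 sums were tested with edgeR 4.0.16 (limma 3.58.1, R 4.3.3): TMM, filterByExpr with the 18 class-defining genes left out, robust quasi-likelihood fit of class and library, 5 residual degrees of freedom. Each class was compared with the equally weighted mean of the other 5, and with each other class. The order of the classes for a gene comes from the same data as its tests. P-values rest on the spread of the 12 sums that is left after class and library are fitted, not on the shift between the 2 pools of mice. A simulation of macrophages against the others on 14429 genes recovered 100% of genes changed 4-fold and 41% of those changed 2-fold as calls, and called 0% of unchanged genes. It drew all sums from the same profile, apart from the changed genes, with no shift between libraries. In the data 19.5% of genes were called higher and 21.3% lower in this contrast, so these rates may not hold there. Shares of cells were taken after thinning to 2000 UMIs in Python 3.11.15 with numpy 2.4.6, and intervals with scipy 1.17.1. Clustering was not used.

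Alternatives were raw UMI totals, DESeq2 1.42.0, no filter on low counts, no replicate block, each library left out, free RNA subtracted (profile from barcodes with at most 100 UMIs, share from rod genes), Scrublet doublets removed (scanpy 1.11.5), class markers at least 3 times those of the next class, at least 3000 UMIs, at most 10% mitochondrial UMIs, and thinning to 5000 UMIs or none. Subtraction of RPE RNA was added after the data were seen. Named genes are all 9 members, per class the 3 called genes of the listed pathway with the largest positive and the 2 with the largest negative log2 fold change, and the 2 genes with the pattern most like each member. The members and lists were chosen with earlier results of these data known. Gene positions and UTRs are from GENCODE M21, in which 32158 of 32285 gene IDs were found. The 2 libraries belong to 1 group.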

Additional observations from a re-analysis of the deposited data

Results flagged for a closer look

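The 678 and 784 cells that met the limits on UMIs, genes and mitochondrial share but had no class were left out of the comparisons above. They had fewer than 5 UMIs of every class's markers, or a tie for the class with the most. Each member was counted in them too, well above what a count of 0 allows. All levels in these cells are CPM of raw UMI totals, in library 1 and then library 2. Fth1 stood at 8438 and 7220, Ftl1 at 3855 and 2238, and Hmox1 at 270 and 131. Trf stood at 60.6 and 131, Cp at 63.3 and 97.6, and Tfrc at 16 and 25.4. Slc11a2 stood at 11.2 and 19.3, Heph at 4.14 and 4.27, and Slc40a1 at 3.25 and 1.35. Fth1, Ftl1 and Hmox1 were higher in library 1 and Trf was higher in library 2, as in all 6 classes, and Tfrc, Cp and Heph were higher in library 2, as in 5 of 6 classes. These cells were shallow, with a median of 3738.5 and 3679 UMIs, and what they are was not tested.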

How the results depend on the processing

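The class with the highest level of each member against the class next to it kept its direction and its side of the threshold for all 9 members in each alternative that gave a test, the fit without the library block included, and its direction without either library. DESeq2, RPE RNA subtracted, at least 3000 UMIs and at most 10% mitochondrial UMIs changed no call of a member in a class against the others (54 of 54 each), and without the replicate block only the call for lower Ftl1 in mural cells was lost (−1.10, edgeR, adjusted p = 0.0787). No pairing of samples was possible beyond this block, because both libraries belong to 1 group. Signs reversed only where no call was made: Cp in macrophages on raw UMI totals (−0.074), Heph in mural cells with free RNA subtracted (0.095) or doublets removed (0.026), and Slc40a1 with doublets removed in fibroblasts (0.00428) and mural cells (0.13). The cause was not tested. Raw UMI totals move the median of all genes by −0.43 in macrophages, 0.20 in melanocytes and −0.17 in RPE cells, and with them Trf in macrophages fell below the size for a call (0.72), as it did without the filter on low counts (0.98). Calls were gained too, and those with free RNA subtracted rest on an estimate that over-corrects some classes, as given for Trf. Slc11a2 in melanocytes (0.96) was called in 5 alternatives (1.02 to 1.15). On raw UMI totals Tfrc in macrophages (−1.19), Fth1 in melanocytes (1.04) and Slc11a2 in RPE cells (−1.06) were called, with free RNA subtracted Tfrc in RPE cells (1.02) and macrophages (−1.02) and Heph in fibroblasts (1.12), and with doublets removed Heph in fibroblasts (1.08) and Ftl1 in endothelial cells (−1.02). Of the listed iron genes, the number lower in fibroblasts was 7 in place of 4 with class markers at least 3 times the next class. The number higher in mural cells was 10 in place of 6 with free RNA subtracted or with doublets removed, and on raw UMI totals the number lower was 7 in place of 11 in mural cells and 11 in place of 18 in endothelial cells. Left-out libraries give values on log2(CPM + 1) with no test, which understates low genes. On that scale 6 of 54 values without library 1 and 8 of 54 without library 2 moved by more than the spread, all of Slc40a1, Heph or Tfrc. Of these, the called values that moved by over 1.5 times were those of Slc40a1: in RPE cells it was −1.90 without library 1 and −2.21 without library 2 (−3.51 in the test), and in macrophages it was 1.51 without library 1 (2.60 in the test). The log2 ratios of Fth1 to Ftl1 moved by less than the spread of the libraries in the 6 alternatives on cells, free RNA and RPE RNA. Shares of cells moved with depth in 49 of 54 cases at 5000 UMIs and in 49 of 54 without thinning, so they are comparable only at 1 depth.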

Other observations

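Trf was spread unevenly over the cells of some classes. At 2000 UMIs per cell, 5.08% and 3.14% of RPE cells of libraries 1 and 2 held no Trf UMI at a mean of 10.7 and 13.8 per cell, where an equal mean in every cell would leave 0.00227% and 0.0001% by Poisson counting. In melanocytes 75.5% and 69.7% held none, where equal means would leave 72.0% and 48.1%, and the highest cell had 20 and 65 UMIs. Library 2, with the wider gap, is the one with more RPE marker RNA in its melanocytes, and the part of that RNA in the gap was not tested.

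Hmox1 was uneven in every class, not only in those where it was high. Fibroblasts without an Hmox1 UMI made up 41.0% and 45.5% at 2000 UMIs per cell, where equal means would leave 13.9% and 23.5%. In macrophages 47.8% and 55.4% had none, where equal means would leave 20% and 28.4%. RPE cells without one made up 71.2% and 84.3%, where equal means would leave 38.3% and 68.4%. For melanocytes the values were 69.7% and 78.1%, against 62.7% and 71.3%. Slc11a2 differed from this: in macrophages 77.6% and 75.8% of cells had no UMI, near the 76.3% and 74.0% of equal means.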
